A study of Mus musculus with 16 samples.

Results

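The neural lineage genes Nefm, Nefl, Nes, Pax6, Sox1, Tubb3 and Map2 were followed on 16 mouse expression arrays that compared induced pluripotent stem (iPS) cells, made with a human artificial chromosome as the carrier of the reprogramming factors, with embryonic stem (ES) cells and fibroblasts. The members were all probes named for these 7 genes, 13 of the 41174 probes and 7 of the 28095 names on the array. The current symbol found 8 of them. Map2 was not on the array under that symbol, and its 5 probes were found under the older symbol Mtap2. The arrays held 1 sample of C57BL/6 mouse embryonic fibroblasts (MEF), 2 ES lines (B6ES on C57BL/6 and TT2 on C57BL/6 x CBA), the retroviral iPS line 20D17 on C57BL/6 x DBA, and 4 lines each of iHAC1-iPS, iHAC2-iPS and iHAC-free iPS cells on C57BL/6. The iHAC1 vector carried 2 copies each of Klf4, c-Myc, Sox2 and Oct4 under the broadly active CAG promoter, and iHAC2 carried 2 further copies of Oct4 and an shRNA against p53. After transfer of either vector, the study also treated the fibroblasts with microRNA mimics meant to make reprogramming more efficient. The iHAC-free lines were sorted as EGFP-negative cells from iHAC2-iPS lines that had lost the vector: F-B1 came from 2-B1, F-C5 from 2-C6, F-E4 from 2-E and F-N7 from 2-N. Each line was 1 clone with 1 array, and the study kept its ES and iPS cells on feeder layers of mouse embryonic fibroblasts.

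Neural induction passes through ordered steps. Pax6, a paired-domain and homeodomain factor, and Sox1, an HMG-box factor, mark neural progenitors, in which nestin (Nes) forms intermediate filaments. Neurons then assemble neurofilaments from light (Nefl) and medium (Nefm) subunits, together with a neuronal beta-tubulin (Tubb3) and Map2, which binds microtubules in dendrites. These genes come up as pluripotent cells take the neural path.

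The probe sequences below are shown because the comparisons of Nefm, Pax6 and Sox1 rest on them, and because the 2 Pax6 probes read different parts of the transcript. All are 60 bases long, written 5′ to 3′ in lower case with no base singled out. Each has at least 1 reading frame without a stop codon, and positions are those of the array files on mm9. The Nefm probe lies at chr14:68738193-68738252 on the minus strand and the Sox1 probe at chr8:12397120-12397179 on the plus strand. The first Pax6 probe (A_52_P565559) spans 873 bases at chr2:105535591-105536463, so it crosses an intron. The second (A_52_P469306) spans 852 bases at chr2:105524098-105524949 and runs into the alternatively spliced exon that lengthens the paired domain.
Nefm A_51_P145220: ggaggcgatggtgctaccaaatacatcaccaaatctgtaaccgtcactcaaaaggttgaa
Pax6 A_52_P565559: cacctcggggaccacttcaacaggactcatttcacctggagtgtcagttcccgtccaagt
Pax6 A_52_P469306: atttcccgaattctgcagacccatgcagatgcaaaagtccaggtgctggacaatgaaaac
Sox1 A_51_P176337: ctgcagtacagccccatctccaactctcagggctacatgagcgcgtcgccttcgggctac
The Nefl probes lie at chr14:68705638-68705698 (A_51_P339934) and, 1168 bases further along, at chr14:68706866-68706925 (A_51_P168646), both on the plus strand. The Nefm probe is 32495 bases from the first of them, on the other strand. The Nes probe lies at chr3:87784308-87784367, the Tubb3 probe at chr8:125945701-125945760 and the Map2 probe with signal on every array (A_52_P22763) at chr1:66488783-66488842.

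Levels are given as log2 of the processed intensity relative to the 75th percentile of the array, so that a level of 0 equals that percentile. Levels were compared between arrays for a probe and never between probes. The share of spots well above background ran from 54.2% to 65.8% over the arrays. A probe was tested if any array showed it well above background, which held for 11 of the 13 member probes, and 5 passed on all 16 arrays. The MEF, ES, 20D17 and iHAC1-iPS arrays were scanned in 1 session and the iHAC2-iPS and iHAC-free arrays in another. Differences between the 2 sets of groups therefore cannot be told apart from the session. The ES lines and iHAC1-iPS clone 1-D6 shared a slide, and each iHAC2-iPS line shared a slide with the iHAC-free line derived from it. Nothing in the labels says that lines of a group were grown in separate experiments, so the p-values measure the spread between these lines only.

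A probe was called in a comparison when the limma fit over all probes gave an adjusted p below 0.05 and a difference of at least 2-fold. Between iHAC1-iPS and ES cells, 3 of 11 tested member probes were called, against 14.3% of all 31415 probes tested. Between iHAC2-iPS and ES cells 2 were called, against 6.80% of all probes. Pax6, Nefm and Tubb3 were higher in iHAC1-iPS than in iHAC2-iPS cells, which made 3 member probes against 20.0% of all. Pax6, Map2 and 1 of the Nefl probes were higher in iHAC1-iPS than in iHAC-free iPS cells, again 3 against 20.1% of all. No member probe was called by limma between iHAC-free iPS and ES cells, where 0.363% of all probes were called and 3 member probes had an unadjusted p below 0.05. The comparison of iHAC2-iPS with iHAC-free iPS cells gave none by limma either, where 0.818% of all were called and 5 member probes had an unadjusted p below 0.05. In bulk RNA, fewer cells of a type and less RNA per cell cannot be told apart.

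**Figure D1:**
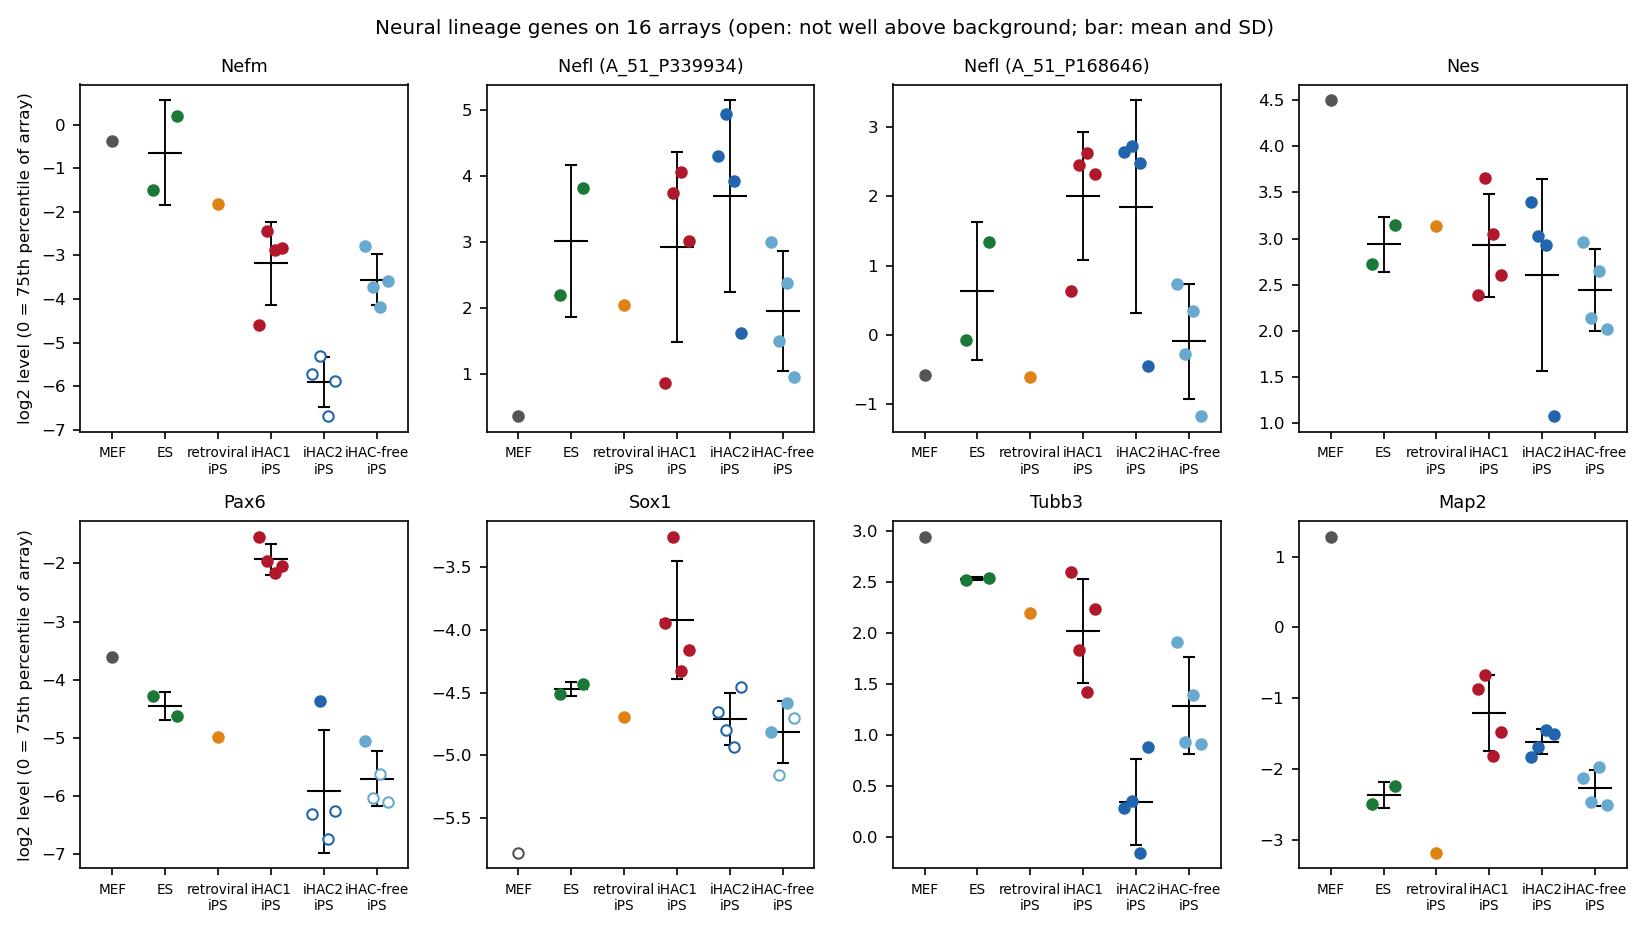
Log2 level of the 8 member probes with signal well above background on 8 or more arrays, 1 point per array, with the mean and SD of each group of 2 or 4. Open points were not well above background. Pax6 lies between -2.17 and -1.54 in the 4 iHAC1-iPS clones and at -3.62 or lower on every other array, and all 4 iHAC2-iPS points of Nefm are open.

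Pax6 was the member that set iHAC1-iPS clones apart most clearly. The first Pax6 probe read -1.54 in 1-A3, -1.97 in 1-B, -2.17 in 1-C3 and -2.05 in 1-D6. It read -4.28 in B6ES and -4.62 in TT2, -4.99 in 20D17 and -3.62 in MEF. The 4 iHAC1-iPS clones were above all other arrays, and they differed among themselves by less than 1 log2 unit. In iHAC2-iPS cells the probe was well above background only in 2-C6, at -4.36, and its readings in 2-B1, 2-E and 2-N were -6.30, -6.73 and -6.26. In iHAC-free cells it was well above background only in F-B1, at -5.05, with readings of -6.03 in F-C5, -5.61 in F-E4 and -6.09 in F-N7. Mean levels were -1.93 ± 0.27 in iHAC1-iPS (SD, n = 4), -4.45 ± 0.24 in ES (n = 2), -5.70 ± 0.48 in iHAC-free (n = 4) and -5.91 ± 1.06 in iHAC2-iPS cells (n = 4).

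Pax6 was 5.73-fold higher in iHAC1-iPS clones than in ES cells (log2 difference 2.52, SE 0.53, limma adjusted p = 0.00633). Within the slide that held both ES lines and 1-D6 the difference was 2.40, and with slide as a block the adjusted p was 0.0940. Leaving out TT2 gave an adjusted p of 0.0531. Against iHAC2-iPS cells the log2 difference was 3.98 (SE 0.43, limma adjusted p = 9.73e-05) and against iHAC-free iPS cells 3.77 (SE 0.43, limma adjusted p = 9.45e-05). Each of these groups measured the probe on 1 of 4 arrays, and with dim values set to the floor of their array the differences were 2.69 and 3.24. Both kept their call in each of the 17 alternative fits, with log2 differences from 1.45 to 4.50 and from 1.73 to 3.98. The iHAC2-iPS and iHAC-free groups overlapped with each other, and their means differed by 0.22. Against ES cells their differences of -1.46 and -1.25 had limma adjusted p-values of 0.0867 and 0.213, so the order of the 3 lower groups was not resolved.

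The second Pax6 probe, in the alternatively spliced exon, was not well above background on any of the 16 arrays, iHAC1-iPS clones included, and was not tested. Another probe of the region, named in the files only by an Ensembl transcript (ENSMUST00000111083), lies 814 bases beyond the first Pax6 probe, at chr2:105537277-105537336. It lies on the same strand and was not a member by name, and its label does not say whether it reads Pax6 itself. It read 0.38, 0.15, -0.22 and 0.24 in the 4 iHAC1-iPS clones, -2.68 and -2.90 in the ES lines and -1.39 in MEF. In iHAC2-iPS cells it was well above background only in 2-C6, at -2.45, and in iHAC-free cells only in F-B1 and F-E4, at -3.44 and -4.50. Its Pearson r with the first Pax6 probe was 0.98 over the 16 arrays, a description over arrays that share groups and sessions. This neighbouring probe was called higher in iHAC1-iPS than in iHAC2-iPS cells (log2 difference 5.51, SE 0.83, limma adjusted p = 0.000580) and than in iHAC-free iPS cells (4.70, SE 0.83, limma adjusted p = 0.00115). Both sizes rest in part on readings not well above background and are given without a floor. Against ES cells its difference of 2.93 had a limma adjusted p of 0.0587.

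Sox1 was dim throughout. It was well above background in all 4 iHAC1-iPS clones, at -3.95 in 1-A3, -3.26 in 1-B, -4.33 in 1-C3 and -4.16 in 1-D6, and in ES cells at -4.51 in B6ES and -4.44 in TT2. It was also above background in 20D17 at -4.70, and not in MEF or in any iHAC2-iPS line. The iHAC2-iPS readings were -4.65, -4.80, -4.93 and -4.45 (2-B1, 2-C6, 2-E and 2-N). The floors of their arrays, the lowest signal well above background, ran from -5.03 to -4.29. These readings lay near those of the ES and iHAC-free lines, so not passing does not place Sox1 lower in iHAC2-iPS cells. Of the iHAC-free lines F-B1 at -4.82 and F-E4 at -4.58 passed, and F-C5 and F-N7 did not. Every iHAC1-iPS clone read above every array of the other groups, but 1-C3 lay under the floor of 2-B1, -4.29. The log2 difference was 0.89 against iHAC-free cells (SE 0.22, limma adjusted p = 0.00775) and 0.78 against iHAC2-iPS cells (SE 0.22, limma adjusted p = 0.0156), both under the 2-fold limit. Since no iHAC2-iPS array measured Sox1, that difference was also taken with readings under the floor raised to it, which gave 1.61-fold. The readings of 2-E and 2-N lay above their floors, -5.03 and -4.79, without passing, so 1.61-fold is not a strict lower limit. Against ES cells the difference was 0.55 (SE 0.27, limma adjusted p = 0.169).

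Nestin showed no called difference in any of the 6 comparisons. Its level was highest in MEF, at 4.50, and lowest in 2-N, at 1.08. The iHAC1-iPS clones read 2.39, 3.66, 3.05 and 2.61 (1-A3, 1-B, 1-C3 and 1-D6), and the ES lines 2.73 and 3.15. The other iHAC2-iPS lines read 3.40, 3.03 and 2.92 (2-B1, 2-C6 and 2-E), and the iHAC-free lines lay between 2.02 and 2.96. All 4 groups with replicates overlapped. Log2 differences ran from -0.50 for iHAC-free iPS minus ES (SE 0.56, limma adjusted p = 0.649) to 0.48 for iHAC1-iPS minus iHAC-free iPS (SE 0.46, limma adjusted p = 0.432). With 2-N left out, the difference between iHAC2-iPS and ES cells went from -0.33 to 0.18.

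The neurofilament subunits had different orders of level over the arrays, and no test compared them with each other. Nefm was highest in TT2, at 0.21, followed by MEF at -0.38, B6ES at -1.49 and 20D17 at -1.82. The iHAC1-iPS clones read -4.60, -2.44, -2.88 and -2.82 (1-A3, 1-B, 1-C3 and 1-D6). The iHAC-free lines read -2.77, -3.72, -4.18 and -3.58 (F-B1, F-C5, F-E4, then F-N7). Both groups lay below ES cells without overlap and overlapped each other. None of the iHAC2-iPS lines was well above background, with readings of -5.71, -5.31, -6.68 and -5.88 (2-B1, 2-C6, 2-E and 2-N). These readings were the lowest of all arrays. The floor of 2-B1 was -4.29, above the level of 1-A3, so 2-B1 is not shown to lie below 1-A3.

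Nefm was 5.82-fold lower in iHAC1-iPS clones than in ES cells (log2 difference -2.54, SE 0.63, limma adjusted p = 0.0146). Within the shared slide, 1-D6 was lower by 2.18, and with slide as a block the adjusted p was 0.175. Without TT2, the ES line with the higher level, the difference was -1.69 with a limma adjusted p of 0.169. In iHAC2-iPS cells Nefm was at least 16.9-fold lower than in ES cells (limma adjusted p = 0.00247) and at least 2.90-fold lower than in iHAC1-iPS cells (limma adjusted p = 0.00215). When the ES and iHAC2-iPS arrays were fitted alone, the adjusted p of the first of these was 0.0630. The second fell under 2-fold with normexp background correction (0.74). Over 15 alternative fits the log2 difference between iHAC2-iPS and ES cells ran from -6.10 to -2.37. The bound of 16.9-fold therefore belongs to the main processing. Between iHAC-free iPS and ES cells the log2 difference was -2.92 (SE 0.63), with a limma adjusted p of 0.0630 that missed the threshold. It passed with normexp background correction (-2.01, limma adjusted p = 0.0182) and with dim values set to a floor (limma adjusted p = 0.0400). It also passed with slide as a random effect (-2.96, limma adjusted p = 0.0247). The ES and iHAC-free groups shared no slide, so that fit does not take slide differences out. iHAC1-iPS and iHAC-free cells differed by 0.38 (SE 0.52, limma adjusted p = 0.599).

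Nefl followed another order. Its first probe was lowest in MEF, at 0.36, and highest in iHAC2-iPS lines 2-C6 and 2-B1, at 4.95 and 4.31. The iHAC2-iPS lines 2-E and 2-N read 3.93 and 1.61. The iHAC1-iPS clones read 0.86, 3.74, 4.06 and 3.02 (1-A3, 1-B, 1-C3 and 1-D6), the ES lines 2.19 in B6ES and 3.83 in TT2, and 20D17 2.05. The iHAC-free lines read 3.0, 1.50, 2.37 and 0.95 (F-B1, F-C5, F-E4, then F-N7). All 4 groups with replicates overlapped, and no comparison of this probe was called.

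The second Nefl probe gave the same low clones, 1-A3 at 0.64 among iHAC1-iPS and 2-N at -0.44 among iHAC2-iPS cells. The other iHAC1-iPS clones lay between 2.31 and 2.63, the other iHAC2-iPS lines between 2.48 and 2.72, the ES lines at -0.07 and 1.34, and the iHAC-free lines between -1.17 and 0.73. The probe was called higher in iHAC1-iPS than in iHAC-free cells (log2 difference 2.10, SE 0.73, limma adjusted p = 0.0394). That call was lost when 1-B, 1-C3, 1-D6, F-C5, F-E4 or F-N7 was left out, with adjusted p-values up to 0.112, and the first probe gave 0.96 (SE 0.83, limma adjusted p = 0.387). Between iHAC1-iPS and ES cells the probes differed in sign, with -0.09 (SE 1.01) for the first and 1.37 (SE 0.89) for the second, neither of them called.

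**Figure D2:**
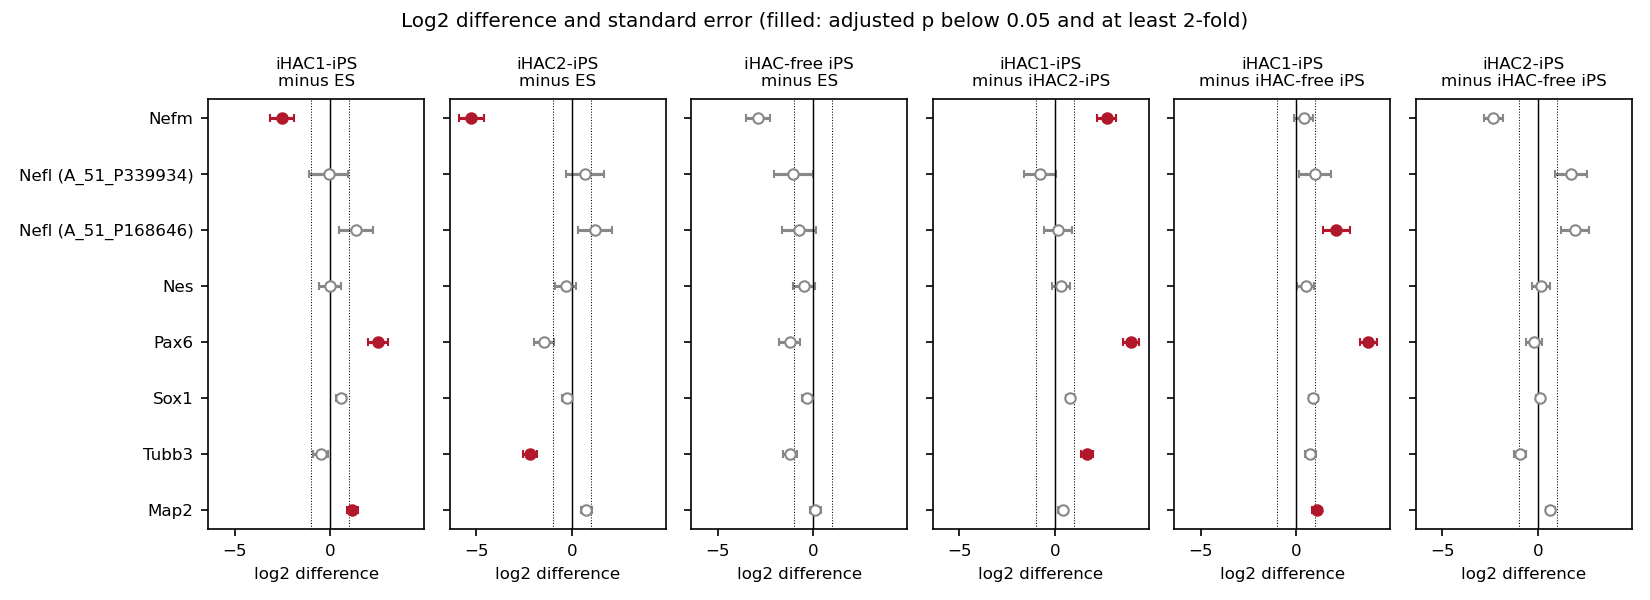
Log2 difference (x axis) with its standard error for the 8 member probes (y axis) in each of the 6 comparisons. Filled points had an adjusted p below 0.05 and at least a 2-fold difference, and dotted lines mark 2-fold. Pax6 is filled in each comparison of iHAC1-iPS cells, and no point is filled for iHAC-free iPS minus ES or for iHAC2-iPS minus iHAC-free iPS.

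Tubb3 was lower in iHAC2-iPS cells. It read 2.52 in B6ES and 2.54 in TT2, 2.20 in 20D17 and 2.94 in MEF. The iHAC2-iPS lines read 0.28, 0.35, -0.15 and 0.88 (2-B1, 2-C6, 2-E and 2-N). The iHAC1-iPS clones read 2.60, 1.83, 1.42 and 2.24 (1-A3, 1-B, 1-C3 and 1-D6) and the iHAC-free lines 1.92, 0.93, 1.39 and 0.91 (F-B1, F-C5, F-E4, then F-N7). The iHAC2-iPS lines were below all other arrays, and only 1-A3 among the iHAC1-iPS clones exceeded the ES lines. Tubb3 was 4.57-fold lower in iHAC2-iPS than in ES cells (log2 difference -2.19, SE 0.37, limma adjusted p = 0.00728) and 3.20-fold lower than in iHAC1-iPS cells (log2 1.68 for iHAC1-iPS minus iHAC2-iPS, SE 0.30, limma adjusted p = 0.00155). The difference from iHAC1-iPS cells kept its call in each of the 18 alternative fits. The one from ES cells missed the threshold when either ES line was left out (adjusted p of 0.0588 without B6ES and 0.0602 without TT2) or when the 2 groups were fitted alone (0.101).

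The iHAC-free lines lay between these groups in Tubb3. Their log2 difference from ES cells was -1.24 (SE 0.37, limma adjusted p = 0.109), from iHAC2-iPS cells 0.95 in size (SE 0.30, limma adjusted p = 0.149) and from iHAC1-iPS cells 0.73 in size (SE 0.30, limma adjusted p = 0.0741). None of the 3 was called. The iHAC-free lines overlapped with iHAC1-iPS clones and not with ES or iHAC2-iPS cells.

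Of the 5 Map2 probes, A_52_P22763 was well above background on all 16 arrays. It was highest in MEF, at 1.28, and lowest in 20D17, at -3.18. The iHAC1-iPS clones read -0.87, -0.66, -1.81 and -1.48 (1-A3, 1-B, 1-C3 and 1-D6), the ES lines -2.49 and -2.24. The iHAC2-iPS lines lay within -1.83 and -1.45, and the iHAC-free lines within -2.50 and -1.97. Map2 was thus higher in iHAC1-iPS clones than in ES cells (log2 difference 1.16, SE 0.29, limma adjusted p = 0.0154) and than in iHAC-free iPS cells (1.06, SE 0.24, limma adjusted p = 0.00459). The iHAC2-iPS lines also read above both ES lines, by 0.75 (SE 0.29, limma adjusted p = 0.104), which was not called. They overlapped with the iHAC1-iPS clones, which were higher by 0.41 (SE 0.24, limma adjusted p = 0.191). Both called differences of iHAC1-iPS clones were close to the 2-fold limit. The one from iHAC-free cells fell under it in 6 of 18 alternatives, among them without 1-A3, 1-B, F-C5 or F-N7 (0.95, 0.88, 0.99 and 0.98). The one from ES cells fell to 0.98 without 1-B, and its adjusted p was 0.141 without B6ES, 0.0532 without TT2, 0.235 with slide as a block and 0.0755 with the compared groups fitted alone.

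The other Map2 probes were close to background. A_51_P180754 and A_52_P54666 were well above it only in MEF, at -5.19 and -4.22, A_52_P1179775 only in 2-C6, at -3.73, and A_52_P1068259 on no array. No difference is given for them.

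Each iHAC-free line can be set beside the iHAC2-iPS line it came from, on the same slide. Nefm was lower in the line with iHAC2 in all 4 pairs, by 2.94 for 2-B1 and F-B1, 1.59 for 2-C6 and F-C5, 2.51 for 2-E and F-E4, and 2.30 for 2-N and F-N7. As no line with iHAC2 was well above background, these sizes rest on dim readings, and against the floors of their arrays the differences were at least 1.52, 1.04, 0.86 and 1.22. The first Nefl probe went the other way in all 4 pairs, by 1.31, 3.44, 1.55 and 0.66 in the same order. The second Nefl probe did so by 1.91, 2.99, 2.13 and 0.73. Map2 was also higher with iHAC2 in all 4 pairs, by 0.30 to 1.00, whereas Tubb3 was lower by 1.63, 0.58, 1.55 and 0.03. For Nefm, Map2 and Tubb3 the readings of the groups did not overlap. Any other pairing of the lines would give the same direction, so the pairs add nothing to the group difference there. Pax6 and Sox1, near background in these lines, did not keep a sign over the pairs.

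None of these differences within pairs gave a call for the groups. For Nefm the log2 difference was -2.33 (SE 0.52, limma adjusted p = 0.0525) and corresponds to at least 2.23-fold, as no line with iHAC2 measured it. For the second Nefl probe it was 1.94 (SE 0.73, limma adjusted p = 0.196), and for the first 1.74 (SE 0.83, adjusted p = 0.287). Without 2-N both Nefm (-2.34, limma adjusted p = 0.0431) and the second Nefl probe (2.71, limma adjusted p = 0.0192) were called. The slides gave -2.05 and -2.62 for Nefm, and 2.56 and 1.32 for the second Nefl probe.

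**Figure D3:**
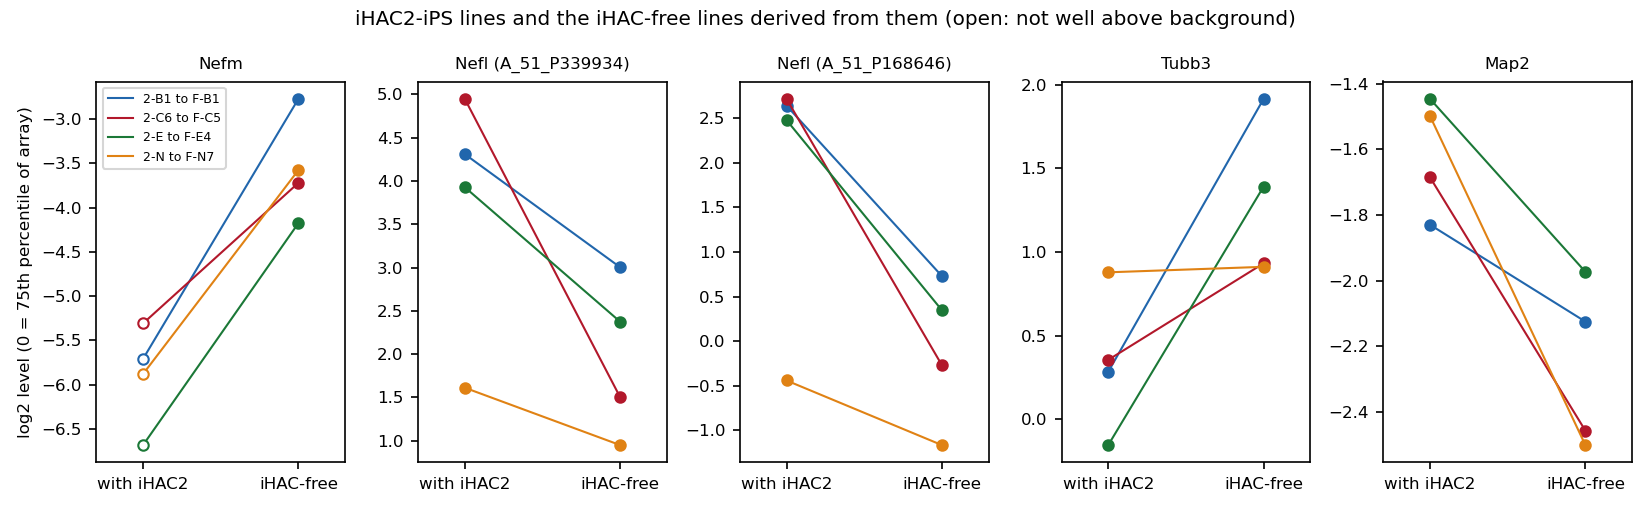
Log2 level of 4 members in each iHAC2-iPS line (left of each panel) and in the iHAC-free line derived from it (right), joined by a line for each of the 4 pairs. Open points were not well above background. The Nefm lines rise from open points by 1.59 to 2.94 from iHAC2-iPS to iHAC-free cells, or by at least 0.86 to 1.52 against the floors, and those of both Nefl probes fall by 0.66 to 3.44.

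The wider neural programme was read from other gene lists, each gene by the probe with the highest mean level over the arrays. Of 23 neural plate and progenitor genes tested, 4 were higher and 1 lower in iHAC1-iPS clones than in ES cells, where 14.3% of all probes were called, with a median log2 difference of 0.70 against 0.04 over all probes. Without 1-B 7 were higher and 2 lower, without 1-D6 4 and 2, and without either ES line 3 were higher. Against iHAC2-iPS cells 9 were higher and 1 lower (median 0.66, all probes -0.03), and against iHAC-free iPS cells 10 were higher and 1 lower (median 0.85, all probes 0.03). The called shares were 43.5% and 47.8% of the list, against 20.0% and 20.1% of all probes. Between iHAC-free iPS and ES cells none was called by limma, and 3 had an unadjusted p below 0.05. Zic1, a zinc-finger factor of the early neural plate, led each comparison of iHAC1-iPS cells. Its level was 3.64 ± 0.44 in iHAC1-iPS (SD, n = 4) and -2.39 ± 0.10 in ES cells (n = 2), a log2 difference of 6.03 (SE 0.59, limma adjusted p = 9.10e-05), and MEF had 2.92. En2, a homeobox factor of the midbrain and hindbrain, was higher by 4.04 (SE 0.78, limma adjusted p = 0.00402), with a level of -2.91 in MEF.

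Proneural factors, which start neuronal differentiation, showed 3 higher and none lower of 17 in iHAC1-iPS against ES cells (17.6% called, all probes 14.3%), with a median of 0.14. Among them were Insm1 (log2 difference 3.69, SE 1.02, limma adjusted p = 0.0240) and Neurog2, which was not well above background in ES cells and was at least 3.69-fold higher (limma adjusted p = 0.0109). Leaving out TT2 left none of the higher genes called, and leaving out B6ES or 1-D6 left 1. Of 29 neuronal differentiation genes 10 were higher and 4 lower (48.3% called, all probes 14.3%). Their median was 0.61, or 0.09 when all probes of a gene were averaged. Dpysl3, which acts in growth cones, rose by 3.31 (SE 0.47, limma adjusted p = 0.000789) to 5.39 ± 0.35 in iHAC1-iPS cells (n = 4), against 4.63 in MEF. Chga, a protein of secretory granules, fell by 2.78 (SE 0.76, limma adjusted p = 0.0228). Without B6ES 4 were higher and none lower, without 1-D6 6 were higher and none lower, and without TT2 or 1-A3 8 and 7 were higher and 0 and 1 lower.

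Between iHAC2-iPS and ES cells, where 6.80% of all probes were called, these lists gave 1 call of 23, 1 of 17 and 3 of 29. Sox11, a progenitor factor, was higher by probe A_52_P160955 (log2 difference 1.40, SE 0.24, limma adjusted p = 0.00733) as the 1 called gene of 23. Another Sox11 probe, A_52_P178018, ran close to Pax6 over the arrays (Pearson r = 0.97), and its difference is not given here. Phox2a, a factor of autonomic neurons, was higher (2.41, SE 0.67, limma adjusted p = 0.0403) as the 1 of 17. Of 29 neuronal differentiation genes Eno2, a neuronal enolase, was higher by 1.97 (SE 0.39, limma adjusted p = 0.0133), and Nsg1 and Celf3 were lower, with differences of -1.43 and -1.19. Without B6ES none of these lists had a call, and without TT2 only the neuronal differentiation genes did, with 1 higher and 1 lower. No proneural factor was higher without 2-B1, 2-E or 2-N either, and without 2-C6 2 were higher and 2 lower. Without 2-N 4 neuronal differentiation genes were lower. Celf3, an RNA-binding protein, was also lower in iHAC2-iPS than in iHAC-free iPS cells (-1.60, SE 0.15, limma adjusted p = 0.00110), and was there the only called gene of the 29.

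Other genes of the members' families were counted in the same way. Between iHAC1-iPS and ES cells 41.7% of the intermediate filament genes and 14.3% of the tubulin genes were called, against 14.3% of all probes. Of 12 other intermediate filament genes none was higher and 5 were lower in iHAC1-iPS clones than in ES cells, with a median of -1.81. The keratins Krt8, Krt7 and Krt18 of simple epithelia had differences of -4.34 (SE 1.39), -4.18 (SE 0.97) and -3.66 (SE 1.08), with limma adjusted p-values of 0.0436, 0.0108 and 0.0308. Without B6ES none was lower, and without TT2, 1-A3 or 1-D6 2 were. Among 14 tubulin genes, Tubb2b was higher (1.02, SE 0.24, limma adjusted p = 0.0106) and Tuba1c lower (-1.61, SE 0.41, limma adjusted p = 0.0173) in iHAC1-iPS clones than in ES cells, with none called without B6ES, 1 higher without TT2 and 1 lower without 1-A3 or 1-D6. Against iHAC2-iPS cells Tubb2b (1.56, SE 0.19, limma adjusted p = 0.000219) and Tuba1a (1.33, SE 0.32, limma adjusted p = 0.00718) were higher in iHAC1-iPS clones, as Tubb3 was. Tuba1c was lower there (-1.17), and 21.4% of the tubulin genes were called, against 20.0% of all probes. No other tubulin was called by limma between iHAC2-iPS and ES cells, where Tubb3 was lower and 7 of the 14 had an unadjusted p below 0.05. Of 14 genes of other microtubule-associated proteins, Map1b had a difference of 2.58 between iHAC1-iPS and iHAC2-iPS cells (SE 0.39, limma adjusted p = 0.000603), and Map7 one of -3.38 (SE 0.44, limma adjusted p = 0.000283).

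The REST repressor holds neuronal genes down in other cells. Rest itself was lower in iHAC1-iPS clones than in ES cells (log2 difference -1.86, SE 0.33, limma adjusted p = 0.00276), iHAC2-iPS (-1.31, SE 0.27, limma adjusted p = 0.00368) and iHAC-free iPS cells (-1.82, SE 0.27, limma adjusted p = 0.000443). Its level was 1.78 ± 0.41 in iHAC1-iPS cells (n = 4) and 1.27 in MEF, against 3.64 ± 0.17 in ES cells (n = 2). Of 15 genes of the complex tested, 1 was higher and 2 were lower in iHAC1-iPS clones than in ES cells (20% called, all probes 14.3%), with a median of 0.05. Without B6ES none was higher and 1 lower, and without TT2 or 1-D6 1 was lower.

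**Figure D4:**
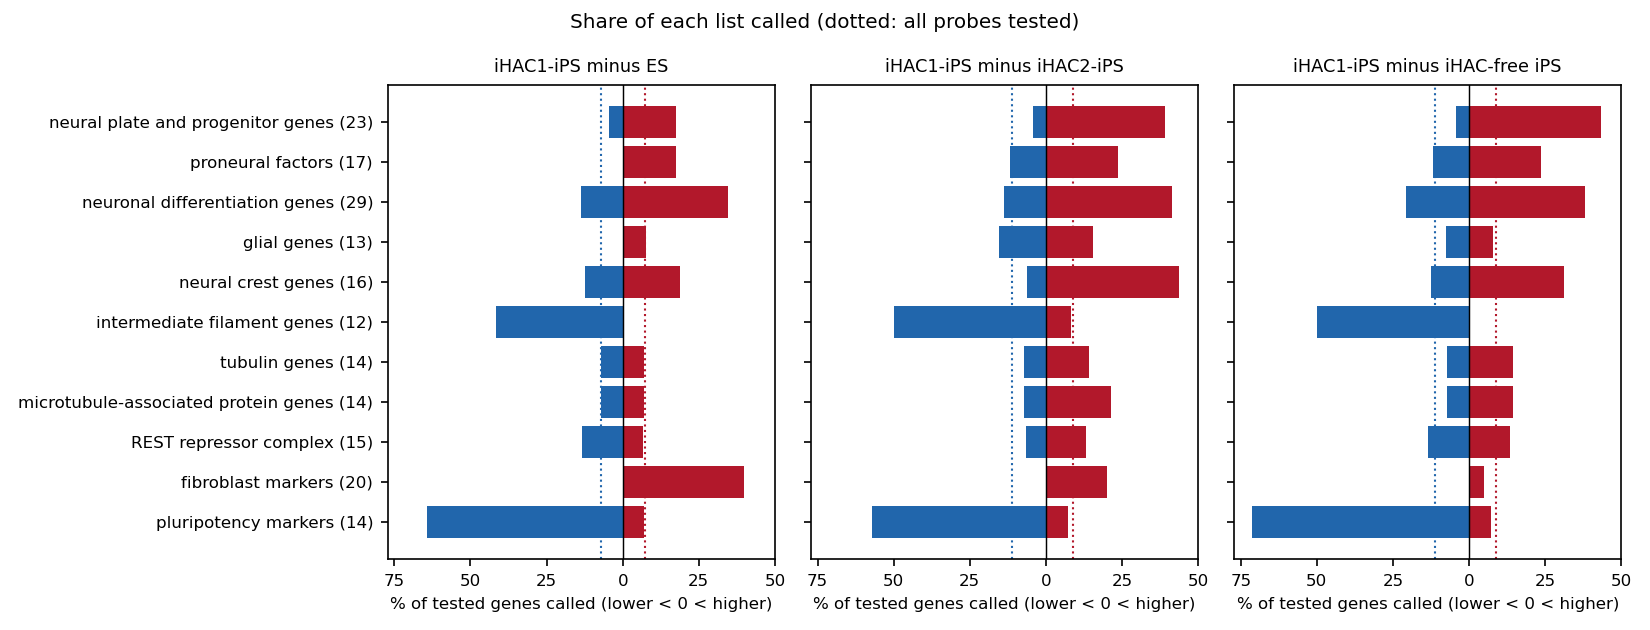
Percent of the tested genes of each list (number in brackets) called higher (red, right) or lower (blue, left) in iHAC1-iPS cells against ES, iHAC2-iPS and iHAC-free iPS cells. Dotted lines give the same share over all probes tested. Of the neural plate and progenitor genes 4, 9 and 10 of 23 were higher, and of the pluripotency markers 9, 8 and 10 of 14 were lower.

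Markers of other cell types were read beside these differences. Between iHAC1-iPS and ES cells 71.4% of the pluripotency markers and 40% of the fibroblast markers were called, against 14.3% of all probes. Of 14 pluripotency markers 9 were lower and 1 higher in iHAC1-iPS clones than in ES cells, with a median of -3.91, and none was called by limma between iHAC-free iPS and ES cells, where 1 had an unadjusted p below 0.05. Without B6ES or TT2 6 were lower. Of 20 fibroblast markers 8 were higher in iHAC1-iPS clones than in ES cells (median 1.42). Without B6ES none was, without 1-A3 or 1-D6 5 were, and without TT2 9 were. Against iHAC2-iPS cells 4 of the fibroblast markers were higher in iHAC1-iPS clones (20% called, all probes 20.0%). Against iHAC-free iPS cells 1 was (5% called, all probes 20.1%). All 20 fibroblast markers were well above background on every array except B6ES and 2-N, with 19 each. Their summed level, in log2, was 9.74 in MEF, 7.60 and 8.77 in the ES lines, 9.57 in 20D17, 8.81 to 9.98 in iHAC1-iPS, 7.70 to 9.05 in iHAC2-iPS and 8.48 to 8.99 in iHAC-free cells. Line 2-N, with the lowest Nes and Nefl among iHAC2-iPS lines, also had the lowest fibroblast sum of that group, 7.70. Clone 1-A3, with the lowest Nes and Nefl among iHAC1-iPS clones, had a sum of 9.52, above 1-B at 8.92 and 1-C3 at 8.81. Nes, Tubb3 and Map2 were highest in the MEF array, and the part of fibroblast RNA in the differences was not tested. Pax6 stood at -3.62 in MEF, below all iHAC1-iPS clones.

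Glial and neural crest genes were read as the other neural cell types. Of 13 glial genes 1, the myelin gene Mbp, was higher in iHAC1-iPS clones than in ES cells (log2 difference 2.63, SE 0.38, limma adjusted p = 0.000952). The list had a median of 0.66, and 7.69% of it was called, against 14.3% of all probes. Of 16 neural crest genes 3 were higher and 2 lower (median 0.68, 31.25% called). Without B6ES 1 was higher and 1 lower. Tfap2a, a factor of the crest and surface ectoderm, was higher (2.12, SE 0.29, limma adjusted p = 0.000641), whereas Erbb3, a receptor of crest and glial cells, was lower (-3.11, SE 0.42, limma adjusted p = 0.000527). Of 9 other Sox and Pax genes none was higher. Sox2, also carried by the vector, and Sox15 were the 2 lower, with differences of -2.46 and -2.10 (22.2% called). Without B6ES or TT2 1 was lower. Of 10 epiblast markers none was called by limma between iHAC1-iPS and ES cells, with 1 at an unadjusted p below 0.05, and 2 were lower without 1-B and 1 without 1-C3. Of 14 mesoderm and endoderm markers 1 was lower, and none was without B6ES, 1-A3 or 1-B.

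The genes whose levels ran closest to a member were sought over the 16 arrays among 24959 probes that passed background on 8 or more of them. For Pax6 they were Pafah1b2 (Pearson r = 0.98), the Ensembl-named probe described above (0.98) and Sox11 (0.97, A_52_P178018, not the probe called above). For Nefm they were Ptpn12 (0.94), Arf6 (0.92) and Stx16 (0.90). For the first Nefl probe they were Fgf15 (0.93), Cyp2b13 (0.91) and AK052093 (0.90). Nes ran closest to Sulf1 (0.95), Tubb3 to Zfp715 (0.96), Sox1 to Rrm2 (0.90) and Map2 to BB268102 (0.94). These values describe arrays that fall into the study's groups and scan sessions, and for Sox1, at 0.90, Spearman's rho was 0.72.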

How the data were processed

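Total RNA of 16 samples had been labelled with Cy3 and hybridised to 1-colour Agilent arrays. The intensities used here were deposited by the authors as Feature Extraction output, with background already subtracted and flags for spots well above background. The authors also deposited log2 values from GeneSpring GX 11, centred per probe, which served as an alternative. Control and outlier spots were left out, spots of a probe were averaged, log2 was taken and the 75th percentile of each array subtracted. Probes well above background on at least 1 array were tested in limma 3.58.1 (R 4.3.3), with 1 fit over 16 arrays and 6 groups and Benjamini-Hochberg adjustment over 31415 probes. MEF and 20D17, with 1 array each, have values and no test. A group with no array well above background has only a bound. It was set against the lowest signal well above background on each array, or against the reading where that was higher. The number of arrays limits the precision. The fit was tested on simulated data. Tables were made with Python 3.11.15 and pandas 2.3.3.

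The members and lists were chosen with earlier results of these data known. Named were all member probes, the 3 largest called differences of each list and, for each member with enough signal, the 3 probes with the highest Pearson r. Some genes that this rule names are not reported here. The iHAC-free and iHAC2-iPS lines were paired by origin, as the names give it. Deviations from the group mean correlated at -0.07, -0.22, 0.03 and 0.08 in the 4 pairs. Between lines of different origin they correlated from -0.105 to 0.216. The alternatives were another background correction, normalization, percentile, filter or floor, the deposited log2 values, 1 probe per gene, slide or pair as a block, the compared groups alone, and each array left out. Slide was a random effect instead of a block where the compared groups shared no slide.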

Additional observations from a re-analysis of the deposited data

Results flagged for a closer look

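The second Nefl probe (A_51_P168646) stood apart in 1 line of each of 2 groups. In iHAC1-iPS clone 1-A3 its log2 level was 0.64, where the nearest other clone had 2.31, a gap of 0.843 of the range of the group. In iHAC2-iPS line 2-N it was -0.44, where the nearest other line had 2.48, a gap of 0.925 of the range. Of 33 group checks these 2 had a gap past Dixon's critical value, and chance flags about 1 in 20. The first Nefl probe was lowest in the same lines, at 0.86 and 1.61. The summed fibroblast marker level was 9.52 in 1-A3 and 7.70 in 2-N, and its part in the Nefl level was not tested.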

How the results depend on the processing

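Only 2 ES lines were measured. Dim members (Pax6, Sox1, and Nefm with iHAC2) are limited by signal over background. Of the log2 differences, 742 kept direction and side of the threshold under the alternatives, 28 lost and 10 gained the call, and 20 changed sign. The causes were not tested. With the replicate block, pairing each iHAC2-iPS line with its iHAC-free line, 139 of all probes were called between these groups against 257 without it, and no member was.

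With normexp background correction, Map2 became 0.73 (iHAC1-iPS minus ES), 0.79 (iHAC1-iPS minus iHAC-free) and -0.060 (iHAC-free minus ES), Nefm 0.74 (iHAC1-iPS minus iHAC2-iPS), Nes 0.011 (iHAC1-iPS minus ES) and Pax6 0.28 (iHAC2-iPS minus iHAC-free). The probes called were 2366 (iHAC1-iPS minus ES), 2980 (iHAC1-iPS minus iHAC-free), 2614 (iHAC1-iPS minus iHAC2-iPS) and 933 (iHAC2-iPS minus ES), and 1 member was called for iHAC-free minus ES. With quantile normalization Nes was 0.045 (iHAC1-iPS minus ES). With the percentile over probes well above background on all arrays, Map2 was 0.98 (iHAC1-iPS minus iHAC-free) and 1 member was called for iHAC2-iPS minus iHAC-free. With slide as a block, iHAC1-iPS minus ES gave Map2 0.88, the first Nefl probe 0.0081, Nefm -2.18, Pax6 2.40, 0 members and 2441 probes by limma. Where the compared groups shared no slide, slide was a random effect (correlation -0.12), which does not take slide differences out. That fit called 1 member and 697 probes for iHAC-free minus ES, and 3231 probes for iHAC2-iPS minus ES. With the compared groups fitted alone, Map2 (1.16) and Nefm (-2.54) lost the call for iHAC1-iPS minus ES, leaving 1 member, and Nefm (-5.25) and Tubb3 (-2.19) for iHAC2-iPS minus ES, leaving 0; 14, 19 and 104 probes were called for iHAC-free minus ES, iHAC2-iPS minus ES and iHAC2-iPS minus iHAC-free.

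With 1 probe per gene, 1322 (iHAC2-iPS minus ES) and 171 (iHAC2-iPS minus iHAC-free) were called. Without a filter, 63 (iHAC-free minus ES) and 4485 (iHAC2-iPS minus ES) were. With dim values at a floor, Pax6 was 0.55 (iHAC2-iPS minus iHAC-free), 1 member and 236 probes were called for iHAC-free minus ES, and 3570 probes for iHAC2-iPS minus ES. Among probes well above background on all arrays, 278 (iHAC-free minus ES), 2749 (iHAC1-iPS minus ES), 3349 (iHAC1-iPS minus iHAC-free) and 3241 (iHAC1-iPS minus iHAC2-iPS) were called, with 1 member each for iHAC1-iPS minus ES, iHAC1-iPS minus iHAC2-iPS and iHAC2-iPS minus ES.

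With 1 array left out, iHAC1-iPS minus ES ranged for Nefm from -3.39 to -1.69, Pax6 2.35 to 2.69, Map2 0.98 to 1.36, the first Nefl probe -0.91 to 0.72 and Nes -0.25 to 0.20. For iHAC2-iPS minus ES, Tubb3 ranged from -2.37 to -2.03, the first Nefl probe -0.13 to 1.50 and Nes -0.59 to 0.18, and without 2-C6 Pax6 was called (-1.98, limma adjusted p = 0.00360). For iHAC-free minus ES, Map2 ranged from -0.029 to 0.23. For iHAC1-iPS minus iHAC-free, the second Nefl probe ranged from 1.74 to 2.55 and Map2 0.88 to 1.26. For iHAC1-iPS minus iHAC2-iPS, the second Nefl probe ranged from -0.61 to 0.61 and Nes -0.19 to 0.58. For iHAC2-iPS minus iHAC-free, Pax6 ranged from -0.73 to 0.057, Nes -0.10 to 0.68 and Sox1 -0.0066 to 0.18. Called members ranged over 0 to 3 (iHAC1-iPS minus ES), 1 to 4 (iHAC2-iPS minus ES), 1 to 3 (iHAC1-iPS minus iHAC-free) and 0 to 2 (iHAC2-iPS minus iHAC-free), and called probes over 1867 to 4718 (iHAC1-iPS minus ES), 319 to 3733 (iHAC2-iPS minus ES), 16 to 54 (iHAC-free minus ES) and 40 to 983 (iHAC2-iPS minus iHAC-free).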
